A study of Mus musculus with 63 samples.

Results

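Eef2-Dapk3, Prmt1-Cpt1c, Arnt-Ctsk, Cct6a-Sumf2 and Rassf1-Tusc2 are 5 mouse gene pairs in which both genes lie on the same strand, one behind the other, so that transcription of the upstream gene (named first) runs towards the promoter of the downstream gene. The pairs were chosen by values of these data: in mouse embryonic fibroblasts (mEFs) without Chaserr the downstream genes had lower RNA or a weaker promoter peak than in WT mEFs. Their lower ratios in that comparison are therefore a description and carry no test. The 10 genes are among 24990 genes quantified, and the 5 pairs are among 4165 same-strand neighbours with a gap under 10 kb, of which 1077 had a gap under 2 kb. The quantity followed here is the ratio of downstream to upstream TPM (the share of transcripts that come from a gene, corrected for transcript length and scaled to a fixed total) in each of 47 RNA libraries of 17 groups.

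Chaserr is a long noncoding RNA transcribed just upstream of Chd2, which encodes a chromatin remodeller of the CHD family. Where genes stand in tandem, RNA polymerase that runs past the end of the upstream gene can pass over the promoter of its neighbour, a situation known as transcriptional interference. In 4 of the 5 pairs the upstream gene serves a general function of the cell. Eef2 encodes the elongation factor that moves the ribosome along mRNA, Cct6a a subunit of the cytosolic chaperonin, Prmt1 the main arginine methyltransferase, and Arnt the shared partner of the hypoxia and dioxin receptors. Rassf1 encodes a Ras-association domain tumour suppressor. Of the downstream genes, Dapk3 encodes a death-associated protein kinase, Cpt1c the carnitine palmitoyltransferase of neurons, Ctsk the collagen-degrading protease cathepsin K, Sumf2 a paralog of the sulfatase-activating enzyme, and Tusc2 a small mitochondrial tumour suppressor.

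RNA was measured in whole E9.5 and E13.5 embryos, in brain and in mEFs of WT mice and of heterozygotes that carried 1 Chaserr allele lacking its promoter and first exon (Chaserr+/-, here het). mEFs, which are primary cultures from E13.5 embryos, were also taken from Chaserr-/- embryos, from embryos with a frameshifting deletion in both Chd2 alleles (Chd2 m/m), and from double mutants with both changes (Chaserr-/- Chd2 m/m). Each of these 4 mEF genotypes was set against its own WT mEFs, named here the het, KO, Chd2-cross and double-mutant WT sets. The labels place the het and KO WT sets in the same pregnancy as their mutants. Nothing in the labels says that libraries of a group came from separate litters. Each group held 3 libraries, except Chd2 m/m and the 3 groups of Neuro2a cells, a mouse neuroblastoma line, with 2 each: RNA bound by a CHD2 antibody (RIP), RNA bound by control IgG, and input. Chd2 m leaves some CHD2 function, so the double mutants are not CHD2 nulls, and the 2 founder lines of the Chaserr deletion were used interchangeably. With so few libraries, p-values measure the spread between these libraries, which may be technical in part. The RNA labels name different crosses for the double mutants and for their WT set.

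Libraries held 7621335 to 33192002 estimated counts, and 2 stood apart for library kit: brain replicate 3 of each genotype was made with TruSeq and the other brains with SENSE. Chaserr was at 0 TPM in every Chaserr-/- library and at 0 to 0.23 TPM in the double mutants, against 80.0 to 93.7 TPM in the double-mutant WT set and 8.63 to 22.2 TPM in the other 9 WT mEF libraries, so that the control of every double mutant value stood apart from the other WT mEFs in Chaserr itself. In hets Chaserr was below every WT library of the same tissue except at E13.5, where hets had 31.6, 29.9 and 42.5 TPM and WT 42.1, 64.6 and 57.1 TPM. Chd2 mRNA was higher in every het library than in every WT library of the same tissue, by 1.5-fold in mEFs, 1.56-fold at E9.5, 1.66-fold at E13.5 and 2.02-fold in brain, and was 2.86-fold higher in Chaserr-/- and 3.69-fold higher in double mutant mEFs. Summed fibroblast markers reached 1890 to 6810 TPM in the mEF libraries, and summed neuron markers 4490 to 5870 TPM in WT brain and 1570 to 1590 TPM in Neuro2a input. In such bulk samples fewer cells of a type and less RNA per cell cannot be told apart.

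The gaps were short (GENCODE vM1 on mm9). Rassf1 (chr9:107453886-107464594, plus strand) ended 991 bases before Tusc2 (chr9:107465586-107468439). Cct6a (chr5:130293315-130321696, plus strand) ended 1169 bases before Sumf2 (chr5:130322866-130339928). Prmt1 (chr7:52231359-52241862, minus strand) ended 1174 bases before Cpt1c (chr7:52214743-52230184). These 3 gaps were shorter than most of the 4165 gaps, whose median was 4254 bases. Arnt (chr3:95238310-95301162, plus strand) ended 2045 bases before Ctsk (chr3:95303208-95313284). Eef2 (chr10:80639376-80645252, plus strand) ended 1410 bases before the GENCODE start of Dapk3 (chr10:80646663-80655729), but the first RefSeq start of Dapk3 lay further upstream, only 499 bases behind Eef2.

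The promoters in these gaps are shown because they are where the upstream transcription unit meets the downstream gene. The sequences are RefSeq promoters of the GRCm38.p6 table that were each found once, letter for letter, in mm9. Each gives the 250 bases before the first RefSeq start, 5′ to 3′ on the strand of the gene, except that only the last 128 bases are given for Dapk3, whose window lies in an exon of the antisense gene 4930442H23Rik. The Tusc2 window lies in an exon of the antisense lincRNA Gm9917. Capitals mark a match on either strand to CCAAT or to GGGCGG, and no match overlaps another. TGACGTCA (the cAMP response element), TATAAA, GCATGCGC and CCGGAAG were also searched and are in none of the printed stretches.
Dapk3, chr10:80645624-80645751, plus strand: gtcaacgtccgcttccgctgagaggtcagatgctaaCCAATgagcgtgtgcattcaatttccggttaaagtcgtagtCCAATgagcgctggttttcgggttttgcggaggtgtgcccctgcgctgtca
Cpt1c, chr7:52230222-52230471, minus strand: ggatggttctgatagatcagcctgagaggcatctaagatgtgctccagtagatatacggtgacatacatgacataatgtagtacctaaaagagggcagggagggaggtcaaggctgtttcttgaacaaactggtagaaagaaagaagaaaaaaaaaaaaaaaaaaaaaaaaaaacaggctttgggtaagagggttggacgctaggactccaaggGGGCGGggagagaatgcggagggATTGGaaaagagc
Ctsk, chr3:95302882-95303131, plus strand: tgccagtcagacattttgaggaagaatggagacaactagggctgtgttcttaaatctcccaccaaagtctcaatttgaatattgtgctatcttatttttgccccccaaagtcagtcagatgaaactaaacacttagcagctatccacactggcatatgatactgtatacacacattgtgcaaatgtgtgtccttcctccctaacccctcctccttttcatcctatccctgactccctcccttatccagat
Sumf2, chr5:130322616-130322865, plus strand: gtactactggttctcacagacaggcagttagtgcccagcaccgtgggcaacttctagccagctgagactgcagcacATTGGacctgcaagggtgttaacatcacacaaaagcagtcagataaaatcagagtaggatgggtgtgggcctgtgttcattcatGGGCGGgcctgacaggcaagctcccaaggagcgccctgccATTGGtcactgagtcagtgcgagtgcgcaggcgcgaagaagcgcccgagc
Tusc2, chr9:107465336-107465585, plus strand: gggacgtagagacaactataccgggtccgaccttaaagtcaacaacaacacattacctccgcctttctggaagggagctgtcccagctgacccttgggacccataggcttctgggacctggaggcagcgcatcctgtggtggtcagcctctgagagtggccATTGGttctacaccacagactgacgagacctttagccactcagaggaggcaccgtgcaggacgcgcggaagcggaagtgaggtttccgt
The full 250-base window of Dapk3 held CCAAT 4 times, from base -235 to base -51 counted from the start, GGGCGG at -213 and TGACGTCA at -139, of which only the CCAAT matches at -92 and -51 lie in the printed stretch. CCAAT or its reverse stood in the windows of Dapk3, Cpt1c, Sumf2 and Tusc2 but not in that of Ctsk, and 33.8% of 32851 promoters of this length in the table held it. GGGCGG, the GC box, stood in those of Dapk3, Cpt1c and Sumf2, against 32.7% of promoters, while TGACGTCA stood in 1.55%, TATAAA in 12.4%, GCATGCGC in 2.26% and CCGGAAG in 6.91% of promoters. Ctsk had no CG dinucleotide and Cpt1c had 4, whereas Sumf2 had 9, Tusc2 12 and Dapk3 14, against a median of 6 over all promoters.

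WT ratios differed widely between pairs and tissues, from 0.0101 for Cpt1c over Prmt1 at E9.5 to 13.3 for Tusc2 over Rassf1 in brain. Dapk3 stood far below Eef2 everywhere, at 0.0118, 0.0126 and 0.0135 of its TPM in E9.5 embryos and 0.0218, 0.0204 and 0.023 in E13.5 embryos, with no overlap between the ages. In WT mEFs the same ratio ran from 0.0328 to 0.049. Cpt1c was at 0.0101 to 0.0117 of Prmt1 at E9.5, 0.0437 to 0.045 at E13.5, 0.0334 to 0.0773 in WT mEFs and 0.404 to 0.5 in brain. Brain therefore had the highest Cpt1c ratio of the WT tissues, and both genes differed: Cpt1c was at 24.1 ± 1.65 TPM in E13.5 embryos and 86.8 ± 17.1 TPM in brain (SD, n = 3), and Prmt1 at 540 ± 29.1 and 197 ± 34.2 TPM. Neuro2a input, also of neural type, had Cpt1c at 0.289 and 0.358 of Prmt1. The Neuro2a libraries were made from rRNA-depleted total RNA and the others from mRNA, so library type and cell type cannot be told apart there.

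**Figure D1:**
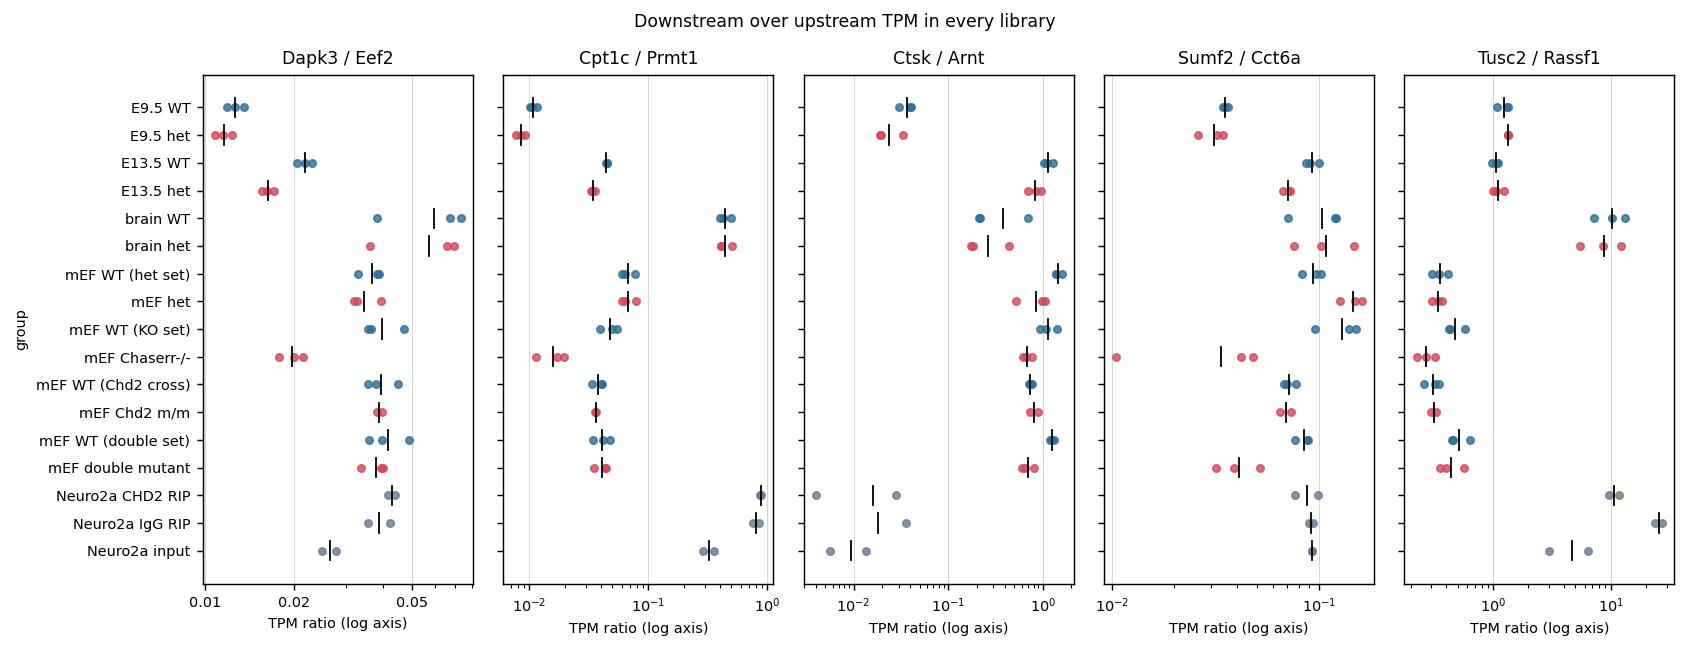
Ratio of downstream to upstream TPM (x axis, log scale, no unit) for each pair in each of 17 groups (y axis); each point is 1 library, black lines are group means, blue is WT, red a mutant and grey Neuro2a. Among the embryo, brain and mEF groups brain is highest for Cpt1c / Prmt1 (0.404 to 0.503) and Tusc2 / Rassf1 (5.49 to 13.3), the Neuro2a RIP groups reach 0.754 to 0.889 and 9.75 to 27.4, all 3 Chaserr-/- libraries lie below their WT set in every panel, and 1 IgG library with Ctsk at 0 cannot be drawn.

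Ctsk differed most between the ages of the 5 downstream genes. It was at 1.07, 0.83 and 1.19 TPM in E9.5 embryos, from only 16 to 24 estimated counts, and at 43.1, 37.9 and 39.1 TPM in E13.5 embryos. Its ratio to Arnt went from between 0.0306 and 0.0408 to between 1.03 and 1.29. Brain was intermediate, at 0.216, 0.21 and 0.704, where the highest value came from the TruSeq library. The WT mEF sets were themselves unlike: the Chd2-cross set had Ctsk at 0.722 to 0.768 of Arnt, below every one of the other 9 WT mEF libraries (0.928 to 1.58). Ctsk itself was at 15.4 ± 1.84 TPM in that set and at 40.4 to 42 TPM on average in the others. The fibroblast list (7 of 8 markers found, all 7 at 1 TPM or more) summed to 1890 to 2100 TPM in the Chd2-cross set and to 3530 to 6810 TPM in the other WT mEF sets; its part in the Ctsk level was not tested.

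Sumf2 stood at 0.0345 to 0.0365 of Cct6a at E9.5, 0.0867 to 0.1 at E13.5, 0.0677 to 0.151 in WT mEFs and 0.0708 to 0.121 in brain. Cct6a differed more between the ages than Sumf2: it was at 698 ± 12.1 TPM at E9.5 and 336 ± 5.55 TPM at E13.5 (SD, n = 3), whereas Sumf2 was at 24.7 ± 0.878 and 31 ± 1.88 TPM. Tusc2 and Rassf1 were near parity in embryos, at 1.09 to 1.35 at E9.5 and 0.99 to 1.1 at E13.5. In WT mEFs Tusc2 was the lower gene of the pair (0.258 to 0.635), and in WT brain it was the higher one by far (10.3, 13.3 and 7.23). Tusc2 was at 136 ± 8.02 TPM and Rassf1 at 13.9 ± 3.74 TPM in WT brain (SD, n = 3).

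These tissue differences were tested in 1 limma fit of the log2 ratio over all WT libraries and all pairs with a mean of at least 1 TPM for both genes, with Benjamini-Hochberg adjustment over 2375 pairs. Between E9.5 and E13.5, 4 of the 5 ratios were called (adjusted p under 0.05), where 64.1% of all pairs were called. The E9.5 ratio was lower by a log2 difference of -4.40 (SE 0.29) for Arnt-Ctsk, -1.99 (SE 0.15) for Prmt1-Cpt1c, -1.38 (SE 0.19) for Cct6a-Sumf2 and -0.78 (SE 0.19) for Eef2-Dapk3, while the Rassf1-Tusc2 value was 0.24 (SE 0.20, adjusted p = 0.308). Brain against mEFs gave calls for 4 pairs, where 85.6% of all pairs were called: the brain ratio was higher by 4.57 (SE 0.16) for Rassf1-Tusc2, by 3.20 (SE 0.11) for Prmt1-Cpt1c and by 0.55 (SE 0.15) for Eef2-Dapk3, and lower for Arnt-Ctsk (-1.71, SE 0.23). Cct6a-Sumf2 gave 0.15 (SE 0.15, adjusted p = 0.341) with all libraries, and with SENSE libraries only all 5 pairs were called, where 86.6% of pairs were. Between mEFs and E13.5 embryos, where 80% of all pairs were called, Eef2-Dapk3 was higher in mEFs (0.84, SE 0.15) and Rassf1-Tusc2 lower (-1.38, SE 0.16). With shares of this size among all pairs, the calls do not set the 5 pairs apart; library kit differed between embryos and mEFs and cannot be told apart from tissue there. The mEF mean includes the 3 WT libraries of the KO comparison used in the choice of the pairs.

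At E13.5, 4 of the 5 ratios were lower in every Chaserr+/- embryo than in every WT embryo, by 23.3% to 26.9% of the mean; over all 2430 pairs, 7.04% were lower in every het. Dapk3 stood at 0.0161, 0.017 and 0.0156 of Eef2 in hets, against 0.0204 to 0.023 in WT. Cpt1c stood at 0.0355, 0.0333 and 0.0337 of Prmt1, against 0.0437 to 0.045. Ctsk stood at 0.702, 0.959 and 0.846 of Arnt, against 1.03 to 1.29, and Sumf2 at 0.0727, 0.0717 and 0.0674 of Cct6a, against 0.0867 to 0.1. The groups thus did not overlap for these 4 pairs, and the mean het ratio was 0.747, 0.767, 0.731 and 0.764 of the WT mean. Tusc2 over Rassf1 was 1.24, 1.07 and 1.01 in hets and 0.99 to 1.1 in WT, which overlapped.

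In these 4 pairs the downstream gene differed more than the upstream gene. The log2 fold change (edgeR, het minus WT) was -0.38 (SE 0.08) for Dapk3, -0.47 (SE 0.07) for Cpt1c, -0.46 (SE 0.11) for Ctsk and -0.28 (SE 0.07) for Sumf2, against 0.04 (SE 0.05) for Eef2, -0.09 (SE 0.06) for Prmt1, -0.01 (SE 0.05) for Arnt and 0.10 (SE 0.05) for Cct6a. None of the 10 genes passed edgeR's quasi-likelihood test after adjustment over 15946 genes (0.0314% of all genes did), and the 4 downstream genes had an unadjusted p under 0.05, as did 1011 or 6.34% of all genes. By DESeq2, which called 0.154% of genes, Cpt1c passed with an adjusted p of 0.000859. None of the ratios passed limma's test (adjusted p = 0.526 for Eef2-Dapk3, Prmt1-Cpt1c and Cct6a-Sumf2 and 0.807 for Arnt-Ctsk), where 0% of 2430 pairs were called and 139 had an unadjusted p under 0.05; the unadjusted p was 0.000602, 0.000562, 0.00149 and 0.0121 for these 4 pairs. They ranked 45th, 62nd, 58th and 39th lowest of the 2430 log2 ratio differences, in the same order. The fibroblast list summed to 2060 to 2560 TPM in E13.5 hets and 2490 to 2750 TPM in WT, and the neuron list to 988 to 1420 and 1200 to 1460 TPM; their part in the Ctsk and Cpt1c values was not tested.

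**Figure D2:**
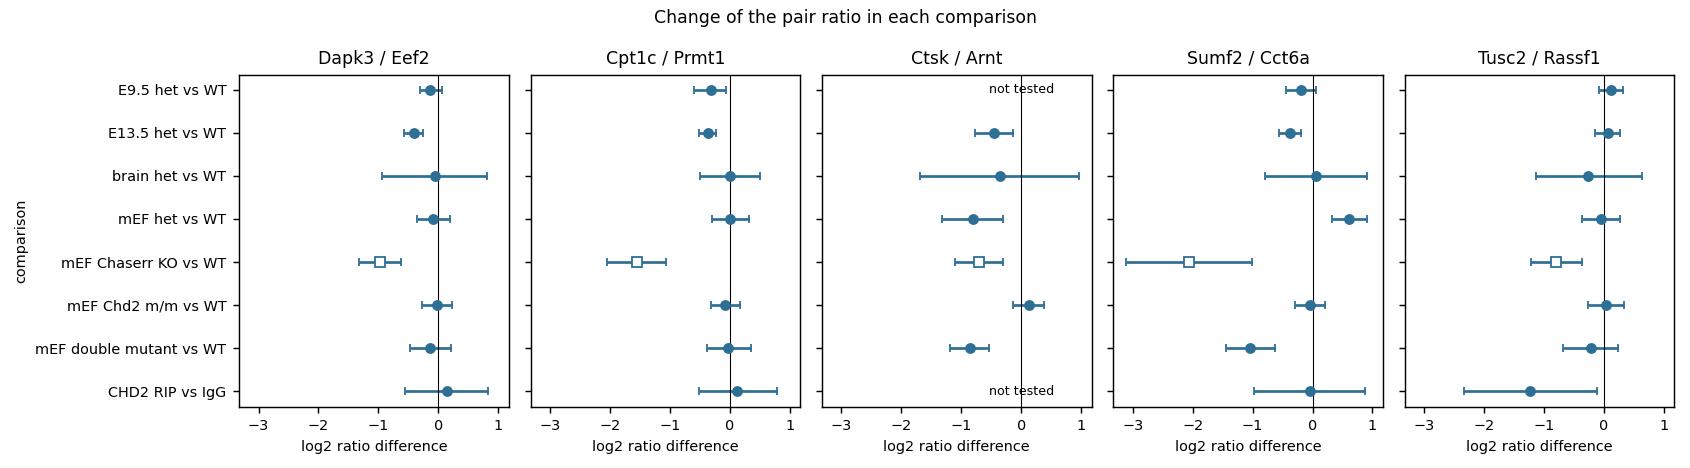
Log2 difference of the downstream to upstream TPM ratio (x axis, first group minus second, TPM + 0.5) in 8 comparisons (y axis), with 95% confidence intervals from limma; open squares are the comparison on which the pairs were chosen. At E13.5 the intervals of 4 pairs lie below 0 and run from -0.77 to -0.14, Ctsk / Arnt also lies below 0 in mEF hets (-1.32 to -0.30) and double mutants (-1.18 to -0.53), and Sumf2 / Cct6a lies above 0 in mEF hets (0.61) and below 0 in double mutants (-1.04).

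At E9.5 the ratios of the same 4 pairs were also lower on average in hets, but only that of Cpt1c to Prmt1 was lower in every library, at 0.00767, 0.00855 and 0.00928 against 0.0101 to 0.0117 in WT (5.01% of 2016 pairs were lower in every het). The log2 difference was -0.32 (SE 0.11), with an unadjusted p of 0.0218 and an adjusted p of 0.993, and limma called 0% of pairs, with 78 at an unadjusted p under 0.05. Dapk3 over Eef2 gave -0.13 (SE 0.08), Sumf2 over Cct6a -0.20 (SE 0.11) and Tusc2 over Rassf1 0.11 (SE 0.09). Ctsk over Arnt was not tested, since Ctsk did not reach a mean of 1 TPM. Its ratio was 0.0191, 0.0336 and 0.0193 in hets, from 10 to 15 estimated counts for Ctsk, and overlapped the WT values. The fibroblast list summed to 427 to 533 TPM in E9.5 hets and 562 to 723 TPM in WT.

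In brain no ratio separated hets from WT, and limma called 0% of 2357 pairs, with 63 at an unadjusted p under 0.05. Cpt1c over Prmt1 was 0.412, 0.411 and 0.503 in hets and 0.5, 0.404 and 0.421 in WT. Tusc2 over Rassf1 was 12.3, 8.61 and 5.49 in hets. The TruSeq libraries lay apart in both genotypes, with Dapk3 over Eef2 at 0.0382 in WT and 0.0361 in hets against 0.0659 to 0.0732 in the SENSE libraries, and the 95% intervals of the log2 differences ran from -0.94 to 0.81 for Eef2-Dapk3 and from -0.49 to 0.50 for Prmt1-Cpt1c. With the replicate number as a block, which also sets the TruSeq libraries apart, they ran from -0.38 to 0.26 and from -0.35 to 0.35. Ctsk over Arnt was 0.174, 0.183 and 0.435 in hets against 0.216, 0.21 and 0.704 in WT, and the groups overlapped. Each het value was below the WT value of the same number, but nothing shows that the numbers pair the brains. The blocked log2 difference was -0.36 (95% interval -0.85 to 0.13, adjusted p = 0.494 by limma). With the kit as a covariate no member was called either.

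In mEF hets the pairs went separate ways. Ctsk over Arnt was 0.527, 1.06 and 0.973, below the 1.37 to 1.58 of its WT set (7.7% of 1857 pairs were lower in every het), with a log2 difference of -0.81 (SE 0.23, adjusted p = 0.237). Sumf2 over Cct6a was higher instead, at 0.149, 0.126 and 0.161 against 0.0831 to 0.102, with no overlap (8.4% of pairs were higher in every het) and a log2 difference of 0.61 (SE 0.13, adjusted p = 0.111). Neither passed limma's test, where 0.162% of pairs were called, although their unadjusted p-values were 0.00541 and 0.00108. The log2 fold changes of the second pair were 0.44 (SE 0.13, edgeR adjusted p = 0.293) for Sumf2 and -0.19 (SE 0.08, adjusted p = 0.506) for Cct6a. Dapk3 over Eef2, Cpt1c over Prmt1 and Tusc2 over Rassf1 overlapped between the groups, with log2 differences of -0.08, 0.01 and -0.05.

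Ctsk alone gave a log2 fold change of -0.83 (SE 0.20) in mEF hets, at 14.9, 29.7 and 26.8 TPM against 37.3, 50.1 and 37.5 TPM in WT. edgeR gave it an adjusted p of 0.192, where 0.173% of genes were called, and DESeq2, which called 0.551% of genes, an adjusted p of 0.00642. Every het value was below every WT value. The share of all genes lower in every het was not computed, so this does not set Ctsk apart. The fibroblast list summed to 5840 to 6770 TPM in hets and 4970 to 6810 TPM in WT, which overlapped.

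The effect of Chaserr heterozygosity on the ratio was compared between the 4 tissues by an interaction term over 2492 pairs, of which 0.0803% were called. No member pair was called with all tissues, the lowest unadjusted p being 0.0183 for Cct6a-Sumf2 (adjusted p = 0.678). Without brain, Cct6a-Sumf2 was called (adjusted p = 0.0127), where 0.309% of 2269 pairs were, with a log2 difference of -0.20 at E9.5, -0.38 at E13.5 and 0.61 in mEFs. The other pairs gave adjusted p-values of 0.587 to 0.965 without brain.

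In Chaserr-/- mEFs, the comparison on which the pairs were selected, all 5 ratios were lower in every mutant than in every WT library. The choice of the pairs favoured this outcome, so it is a description. Of all 1987 pairs, 20.1% were lower in every mutant. Sumf2 over Cct6a was 0.0483, 0.0422 and 0.0105, against 0.139, 0.0956 and 0.151 in WT. Replicate 3 had the lowest value by far, with Sumf2 at 2.14 TPM against 11.4 and 8.09 TPM in the other mutants, and without it the log2 difference went from -2.06 (SE 0.46) to -1.44. Cpt1c over Prmt1 was 0.0114, 0.0194 and 0.017 against 0.039, 0.0551 and 0.0496, a log2 difference of -1.55 (SE 0.21). Dapk3 over Eef2 was 0.0199, 0.0178 and 0.0214 against 0.0364, 0.0355 and 0.047, a difference of -0.97 (SE 0.16). Tusc2 over Rassf1 was 0.224, 0.323 and 0.269 against 0.42, 0.432 and 0.58 (-0.80, SE 0.19), and Ctsk over Arnt 0.77, 0.624 and 0.662 against 1.41, 0.928 and 1.09 (-0.71, SE 0.18).

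The upstream genes were not all steady in these cells. Eef2 was at 717, 1090 and 995 TPM in Chaserr-/- and 1310, 1430 and 1220 TPM in WT mEFs, with a log2 fold change of -0.56 (SE 0.16), beside -1.57 (SE 0.18) for Dapk3. For Prmt1, Arnt, Cct6a and Rassf1 the fold changes lay between -0.21 and 0.22. The fibroblast list summed to 4050 to 4900 TPM in Chaserr-/- and 5330 to 5400 TPM in WT mEFs, and the macrophage list (14 of 14 markers at 1 TPM or more) to 1010 to 1070 and 1330 to 1580 TPM.

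**Figure D3:**
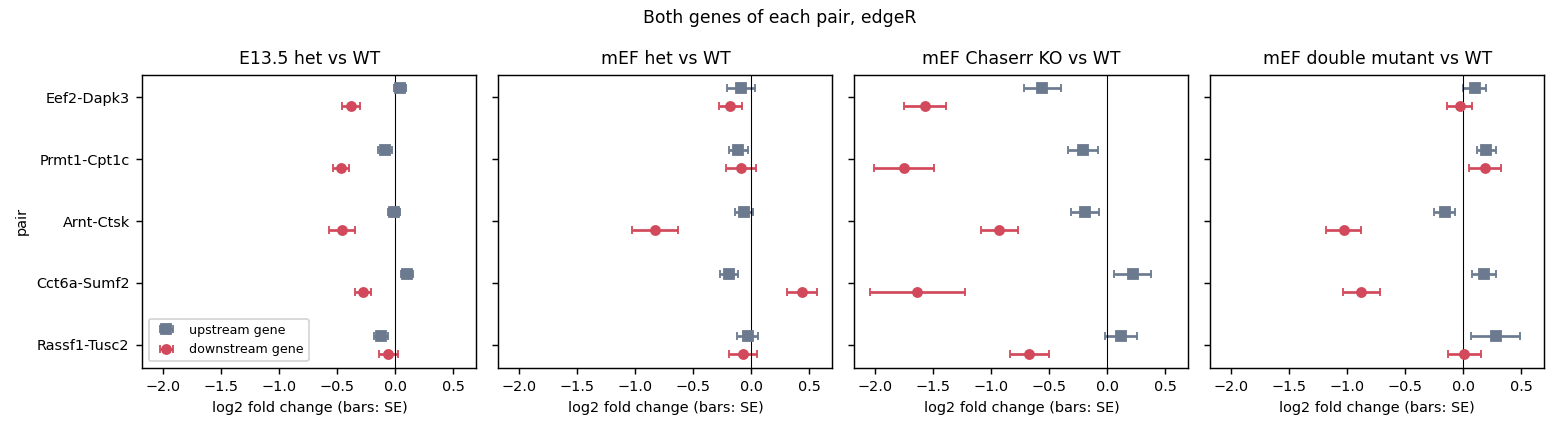
Log2 fold change (x axis, mutant over WT, edgeR; bars are SE) of the upstream gene (grey squares) and downstream gene (red circles) of each pair (y axis) in 4 comparisons. At E13.5 Dapk3, Cpt1c, Ctsk and Sumf2 lie at -0.28 to -0.47 while their upstream genes lie at -0.09 to 0.10, and in double mutants Ctsk (-1.03) and Sumf2 (-0.88) alone lie far below 0.

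Chd2 m/m mEFs had ratios close to those of their WT set, and all 5 overlapped. Sumf2 over Cct6a was 0.0736 and 0.0651 against 0.0677 to 0.0775, and Ctsk over Arnt 0.897 and 0.727 against 0.722 to 0.768. The log2 differences lay between -0.07 and 0.13, their 95% intervals between -0.32 and 0.38, and limma called 0% of 1759 pairs, with 95 at an unadjusted p under 0.05. Chd2 mRNA was 1.58-fold higher in Chd2 m/m than in WT mEFs.

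In double mutant mEFs 2 of the 5 ratios lay below their WT set in every library, and none passed limma's test. Sumf2 over Cct6a was 0.0391, 0.0317 and 0.052 against 0.0878, 0.0765 and 0.089, and Ctsk over Arnt was 0.652, 0.61 and 0.812 against 1.33, 1.25 and 1.18, both with no overlap (6.4% of 1923 pairs were lower in every double mutant). Dapk3 over Eef2 was 0.0394, 0.04 and 0.0337 against 0.049, 0.0359 and 0.0396. Cpt1c over Prmt1 was 0.0441, 0.035 and 0.0429 against 0.0346, 0.0413 and 0.0474, and Tusc2 over Rassf1 0.401, 0.357 and 0.572 against 0.456, 0.452 and 0.635. These last 3 pairs overlapped, with log2 differences of -0.13 (95% interval -0.47 to 0.21), -0.02 (-0.38 to 0.35) and -0.22 (-0.68 to 0.23). Whether double mutants and Chaserr-/- mEFs differed was not tested, since the choice of the pairs used one of them.

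The log2 ratio differences in double mutants were -1.04 (SE 0.19) for Cct6a-Sumf2 and -0.85 (SE 0.15) for Arnt-Ctsk, both with an adjusted p of 0.0693 by limma, where 0.052% of pairs were called. Of single genes, Ctsk (-1.03, SE 0.15) passed edgeR's test with an adjusted p of 0.0339, where 0.0924% of genes were called, and Sumf2 (-0.88, SE 0.16) gave an adjusted p of 0.0787. DESeq2, which called 1.91% of genes, passed both, Ctsk with 2.35e-06 and Sumf2 with 0.000958. The Ctsk result depended on the WT set used. Against the Chd2-cross WT mEFs its log2 fold change was -0.03 (edgeR adjusted p = 0.883). The Arnt-Ctsk ratio difference was -0.11 there, whereas the Cct6a-Sumf2 difference was -0.82 (limma adjusted p = 0.00408). Ctsk averaged 20 TPM in double mutants, 15.4 TPM in the Chd2-cross set and 40.4 to 42 TPM in the other WT mEF sets. Against the Chd2-cross set 42.8% of 1867 pairs and 49.3% of 13899 genes were called. The Cct6a-Sumf2 call therefore does not set the pair apart. Leaving out WT replicate 1 or 2 or double mutant replicate 1 or 2 took the adjusted p of Ctsk to 0.207, 0.168, 0.171 and 0.0861. The fibroblast list summed to 2980 to 3550 TPM in double mutants and 3530 to 4340 TPM in their WT set, and its part was not tested. In replicate 3 of the double mutants Rassf1 stood apart, at 33 TPM against 61 and 61.8 TPM.

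Promoter accessibility was read from ATAC-seq peaks, each called in a single library by the authors and given as fold enrichment over background. The ATAC-seq labels place each WT set in the same pregnancy as its mutants, the double mutants included. The summits of Tusc2 lay between 91 bases before and 3 bases after the mm9 start in all 12 libraries, and those of Sumf2 43 to 69 bases before it in the 11 libraries with a peak. Within 300 bases of the GENCODE start of Dapk3 no library had a peak, but all 12 had one at its first RefSeq start, at the Eef2 end of the gap. RefSeq starts were therefore used for the values that follow, a choice made after the peaks were seen.

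In the KO comparison, which also served to choose pairs and is described without a test, the Dapk3 peak had fold enrichments of 7.27, 7.39 and 7.09 in Chaserr-/- and 11.2, 11.2 and 10.8 in WT mEFs. The Sumf2 peak had 13.3, 13.1 and 11.3 against 15.4, 15.5 and 15.2. At the GENCODE starts, 7.17% of 13677 promoters with a peak were lower in every mutant library. Cpt1c had a peak in 2 of 3 WT libraries (4 and 3.89) and in none of the mutants. The Ctsk peak was 0, 4.29 and 6.95 against 5.07, 8.18 and 8.41, where the 6.95 belongs to a peak of 668 bases with its summit 760 bases after the start, while the other Ctsk summits lay within 33 bases of it. The Tusc2 peak was 13.6, 12.7 and 14.1 against 15.7, 17.8 and 13.6; both overlapped. The upstream promoters overlapped too. Their means in Chaserr-/- and WT mEFs were 14 and 13.9 for Cct6a, 15.6 and 18.2 for Arnt and 5.81 and 7.44 for Eef2. Prmt1 had 10.5 and 12.2, and Rassf1 3.75 and 3.89. The mutant mean was thus 0.78 of WT for Eef2, 0.856 for Prmt1 and 0.857 for Arnt. Among downstream genes it was 0.655 for Dapk3, 0.818 for Sumf2 and 0.858 for Tusc2.

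In double mutants none of the 10 promoter peaks separated from WT, and the exact two-sided permutation test, whose smallest p is 0.1 with 3 against 3, gave 0.4 to 1. Dapk3 had fold enrichments of 7.58, 10.8 and 9.2 in double mutants and 11.6, 7.36 and 8.41 in WT (exact permutation p = 1). Sumf2 had 5.88, 10 and 17 against 18.6, 0 and 12.5. WT replicate 2 and double mutant replicate 1 had only 18661 and 28349 peaks, against 65345 to 81986 in the other 4, and gave most of the low values. Without both, Sumf2 was at 10 and 17 against 18.6 and 12.5, and Dapk3 at 10.8 and 9.2 against 11.6 and 8.41.

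**Figure D4:**
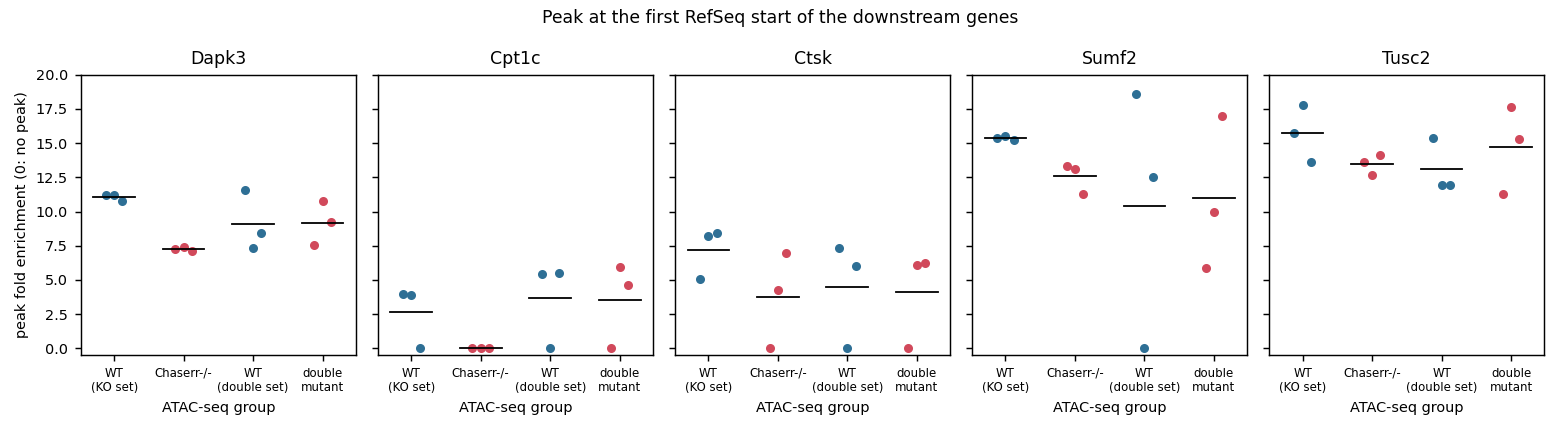
Fold enrichment (y axis, 0 where no peak was called) of the ATAC-seq peak within 300 bases of the first RefSeq start of each downstream gene, in 4 groups of 3 libraries (x axis); points are libraries, black lines means. Dapk3 lies at 7.09 to 7.39 in Chaserr-/- against 10.8 to 11.2 in WT mEFs, and all 5 genes overlap between double mutants and WT.

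In Neuro2a cells Tusc2 over Rassf1 was 9.75 and 11.7 in CHD2 RIP, 27.4 and 23.8 in IgG RIP and 6.41 and 2.99 in input, so that the IgG libraries stood highest. The log2 difference between CHD2 and IgG was -1.23 (SE 0.48, adjusted p = 0.133, limma); 31.1% of 2380 pairs were lower in both CHD2 libraries and 12.1% of pairs were called. Cpt1c over Prmt1 was 0.876 and 0.889 in CHD2 RIP, 0.754 and 0.857 in IgG and 0.289 and 0.358 in input. It was higher in both CHD2 than in both IgG libraries, as 27% of pairs were, by only 0.13 (SE 0.28, adjusted p = 0.788). Dapk3 over Eef2 and Sumf2 over Cct6a overlapped between CHD2 and IgG. Arnt was the only one of the 10 genes that passed edgeR's test (log2 fold change 1.28, SE 0.31, adjusted p = 0.0342), where 11.5% of genes were called. It stood at 55 and 61.4 TPM in CHD2 RIP, 15.6 and 26.8 TPM in IgG and 17.2 and 26.6 TPM in input. With 2 libraries a group, leaving out 1 leaves a single library, so such fits cannot show how firm the Arnt call is. DESeq2, which called 22.4% of genes, also passed Tusc2 (-1.15, adjusted p = 0.0439). Ctsk was at 0 to 1.74 TPM in all 6 libraries, from at most 9 estimated counts, and was not tested. Input lay within the CHD2 range for Cct6a-Sumf2 and below both RIP groups for the other readable pairs. The share of all pairs that separated from input is not given, so this does not set the pairs apart.

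Among 14697 genes with a group mean of at least 5 TPM in some group, the genes whose log2(TPM + 1) followed each downstream gene most closely over the 17 group means were named as a description; the groups share tissues and kits. Tusc2 was followed by 9330102E08Rik, Slitrk5 and Tafa5 (Pearson r 0.99, 0.989 and 0.987), Cpt1c by Bscl2, Rabac1 and Grina (0.967, 0.966 and 0.963), and Ctsk by Col6a2, one of the Creb5 entries, and Tbx15 (0.966, 0.962 and 0.958). Dapk3 was followed by Cpt1c itself, Mcoln1 and Bscl2 (0.872, 0.832 and 0.829), and Sumf2 by Rab13, Phf23 and Mvk (0.846, 0.843 and 0.84). These genes are the highest of 14697, so their r cannot be set against that of the upstream partners, which were not picked by r. For the partners r was 0.738 for Cct6a with Sumf2, 0.227 for Arnt with Ctsk, -0.09 for Eef2 with Dapk3, -0.868 for Prmt1 with Cpt1c and -0.878 for Rassf1 with Tusc2. In these last 2 pairs the downstream gene was thus high in the groups in which the upstream gene was low. The 17 groups include CHD2 and IgG RIP, which hold bound RNA, with Tusc2 at 145 TPM and Cpt1c at 158 TPM in IgG.

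Of 30 paralogs of the 10 genes, such as Dapk1, Cpt1a, Ctsb, Sumf1, Cct2 and Rassf5, 27 or 28 were tested in each het tissue and none was called by edgeR. At E13.5 their median log2 fold change was 0.06 against 0.00 over all genes. The share with a negative log2 fold change was 28.6% at E13.5 (48.9% of all genes), 37% at E9.5 (50.1%), 64.3% in brain (49%) and 46.4% in mEFs (49.6%). Of pairs with a gap under 2 kb and an upstream gene at 10 FPKM or more in WT, 396 were tested at E13.5 and none was called by limma, with a median log2 ratio difference of -0.02 against -0.02 over all pairs. In Chaserr-/- mEFs 268 such pairs were tested, of which 22 were called lower and 3 higher, with a median of -0.12 against -0.06. Of all 1987 pairs, 2.72% were called lower and 1.51% higher. These 84 calls over all pairs hung on single libraries. They fell to 0 without WT replicate 4, WT replicate 6 or Chaserr-/- replicate 3, and rose to 197 without Chaserr-/- replicate 2. The list of close pairs did not leave out member pairs, which were chosen on this comparison, so its lower calls are a description. In double mutants none of 229 was called, with a median of -0.02 against 0.00.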

How the data were processed

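RNA libraries were paired-end. Those of embryos, brain and mEFs were strand-specific mRNA libraries (TruSeq or SENSE), and those of Neuro2a cells were rRNA-depleted total RNA libraries (SENSE). The authors quantified them with RSEM on RefSeq transcripts with an edited last exon of Chaserr (mm9) and deposited estimated counts, TPM and FPKM per gene. For ATAC-seq the authors aligned with Bowtie2 and called peaks per library with MACS2; the deposited lists give a score, a fold enrichment (a ratio) and -log10 p and q values. The labels also list mm10, and the peak summits lay at mm9 starts.

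Symbols came from RefSeq and positions from GENCODE vM1 (85.7% of rows placed). Log2((downstream TPM + 0.5)/(upstream TPM + 0.5)) of all pairs was tested with limma 3.58.1 (empirical Bayes with a trend on the lower gene), and rounded expected counts with edgeR 4.0.16 (quasi-likelihood, TMM, filterByExpr) and DESeq2 1.42.0 in R 4.3.3, both with Benjamini-Hochberg adjustment over all features; calls are adjusted p under 0.05. Confidence intervals are 95%. The scripts were tested on simulated data. The members and lists were chosen with earlier results of these data known, and so were the tests. Named genes are the 10 members, Chd2, Chaserr and the 3 nearest genes by correlation; a few paralogs are named as examples. Alternatives were other pseudocounts (0.1 and 1 TPM), no filter, other size factors, other WT sets, a kit covariate, each library left out, and other peak windows; using RefSeq starts, dropping the 2 thin ATAC-seq libraries and the SENSE-only brain fit were added after the data were seen. The deviations of same-numbered brain libraries from their group means correlated (0.437, 0.529 and 0.747). Replicate 3 of both genotypes shared the TruSeq kit, and het replicate 1 correlated best with WT replicate 2. The correlations therefore do not show that the numbers pair the brains. No other set of 3 pairs had all above 0.1, and the 2 RIP pairs gave 0.192 each. Reads without molecular identifiers are not independent molecules. Chromosome conformation samples were not analysed here.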

Additional observations from a re-analysis of the deposited data

Results flagged for a closer look

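The Cct6a-Sumf2 ratio of hets lay on opposite sides of WT in 2 tissues: every E13.5 het lay below every WT embryo (log2 difference -0.38, SE 0.07) and every mEF het lay above every WT library (0.61, SE 0.13). Neither difference passed limma's test (adjusted p = 0.526 and 0.111). The interaction of genotype and tissue over E9.5, E13.5 and mEFs gave an adjusted p of 0.0127, where 0.309% of 2269 pairs were called, and the call was lost with brain included (adjusted p = 0.678). Summed fibroblast markers were 2060 to 2560 TPM in E13.5 hets against 2490 to 2750 TPM in WT, and 5840 to 6770 against 4970 to 6810 TPM in mEFs; their part was not tested.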

How the results depend on the processing

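No member pair was called in hets or Chd2 m/m mEFs under any alternative, leave-one-out included. Against the WT of the Chd2+/m cross, 1 pair ratio and 7 of the 10 genes were called in double mutants, against 0 and 1, but so were 42.8% of all pairs and 49.3% of all genes; Cct6a-Sumf2 and Sumf2 kept their direction. The count of called genes went from 0 to 1 with DESeq2 at E13.5 (0.154% of all genes called). In mEF hets it went from 0 to 1 with DESeq2, no filter or the replicate block (0.551%, 0.374% and 0.557% of all genes called). In double mutants it went from 1 to 2 with DESeq2, no filter or the replicate block (1.91%, 0.536% and 0.533% of all genes called). It ranged from 0 to 2 without single libraries, where 0.0208% to 1.41% of all genes were called. In CHD2 RIP it was 2 with DESeq2 or the replicate block (22.4% and 25.2% of all genes called) and ranged from 0 to 4 without single libraries. The interaction called 1 member pair without brain, where 0.309% of 2269 pairs were called. In Chaserr-/- mEFs the median log2 fold change of the downstream genes ranged from -1.62 to -1.22 without single libraries, and Tusc2 at E13.5 from -0.12 to 0.00, where the sign changed. For brain, the replicate block called 0 pairs and 0 genes and changed no call. The cause of these changes was not tested. In sets of 3 or fewer libraries, leaving out 1 of 2 Chd2 m/m or RIP libraries assumes that the remaining one varies like the others. Ctsk had at most 24 estimated counts at E9.5 and 9 in Neuro2a, which limits its precision.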
